A study of Mus musculus with 8 samples.

Results

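The transcripts described are the noncoding RNAs that carry small nucleolar RNAs (snoRNAs) or microRNAs inside them. They were taken as the rows of the deposited gene table whose symbol is Gas5, Snhg with a number, or Mir with a name ending in hg, and whose count was above 0 in at least 4 of 8 libraries. Of 28 rows with such a symbol, 26 of the 26848 genes in the table met the rule, 18 of them snoRNA hosts and 8 microRNA hosts. Just inside the rule lay Snhg11, counted in 6 libraries, and just outside lay Mir133a-1hg, counted in 3, and Mir670hg, counted in 2. The 26 rows carry 25 symbols, since Snhg4 stands on 2 rows. Mir17hg, which carries the microRNAs of the miR-17 cluster, was named for inclusion because its difference in these libraries was known, so its values are a description.

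The cells were RAW264.7, a mouse macrophage-like line derived from a tumour induced by Abelson leukaemia virus and used as 1 line throughout. They were grown on polyetheretherketone (PEEK), a polymer of bone implants, with a smooth surface (4 libraries) or with a nano/microstructured surface (4 libraries). The labels name no other agent, time or genotype for either group. The series concerns how the topography of PEEK acts on immune cells around implants, and the comparison asks which RNAs differ between the surfaces.

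A snoRNA host is transcribed and spliced like a messenger RNA, and the snoRNAs are cut out of its introns while the joined exons are often destroyed by nonsense-mediated decay. The snoRNAs then guide 2′-O-methylation (C/D box) or pseudouridylation (H/ACA box) of ribosomal RNA. Several hosts, among them Gas5 and Snhg1, begin with a tract of pyrimidines, as ribosomal protein messenger RNAs do, and accumulate when growth stops or translation is blocked. A microRNA host is the primary transcript from which Drosha cuts hairpins that Dicer turns into mature microRNAs. In macrophages miR-155 is known for its induction by inflammatory signals, miR-142 for its expression throughout blood cells, and the miR-17 cluster as a target of Myc.

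The 6 microRNA genes of Mir17hg lie within 1 host at chr14:115042879-115046727 on the plus strand and fall into 4 seed families. Their main mature forms are shown because this host had the highest fold change of the microRNA hosts. Sequences are RefSeq's for GRCm38.p6, and the capitals mark the seed, bases 2 to 8.
miR-17-5p: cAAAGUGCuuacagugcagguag
miR-20a-5p: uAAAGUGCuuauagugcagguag
miR-18a-5p: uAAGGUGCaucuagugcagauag
miR-19a-3p: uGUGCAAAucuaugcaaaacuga
miR-19b-3p: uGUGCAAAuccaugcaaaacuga
miR-92a-3p: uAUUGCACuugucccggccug
miR-17-5p and miR-20a-5p shared the seed AAAGUGC, and miR-19a-3p and miR-19b-3p shared GUGCAAA. The hosts Mir155hg, Mir22hg and Mir142hg carry single microRNAs known in myeloid cells, each with a seed of its own.
miR-155-5p: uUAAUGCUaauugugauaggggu
miR-22-3p: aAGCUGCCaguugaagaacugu
miR-142a-3p: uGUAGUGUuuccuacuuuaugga

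The snoRNAs of the hosts with the clearest differences are C/D box RNAs. The pair in Snhg5, 1 of the 8 in Snhg1 and Snord47 and Snord80 of the 10 in Gas5 are shown, read from the GRCm38 genome at the positions of GENCODE M21, with the C box (TGATGA) and the D box (CTGA) in capitals. Gm25894 of Snhg1 was searched too, had the CTGA but no TGATGA near its 5′ end, and is not shown. Each line is written 5′ to 3′ on the host's strand.
Snord50a in Snhg5, chr9:88521529-88521600, minus strand: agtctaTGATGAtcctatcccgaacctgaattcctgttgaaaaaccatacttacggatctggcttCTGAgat
Snord50b in Snhg5, chr9:88521797-88521868, minus strand: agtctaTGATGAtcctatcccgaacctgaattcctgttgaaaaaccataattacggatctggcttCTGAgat
Gm24452 in Snhg1, chr19:8724531-8724602, plus strand: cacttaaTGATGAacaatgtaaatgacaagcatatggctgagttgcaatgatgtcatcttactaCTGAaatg
Snord47 in Gas5, chr1:161038082-161038158, plus strand: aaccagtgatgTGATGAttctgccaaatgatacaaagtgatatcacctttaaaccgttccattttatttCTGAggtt
Snord80 in Gas5, chr1:161037601-161037681, plus strand: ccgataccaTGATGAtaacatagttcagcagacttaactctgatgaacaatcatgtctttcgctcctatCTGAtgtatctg
Snord50a and Snord50b are 72 bases each and differ at 1 base, C50A, counted from 1 at the 5′ end of Snord50a. Snord50, Snord47 and Snord80 are known as guides of methylation in the large ribosomal subunit's RNA.

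The libraries measured the hosts and not the small RNAs. The protocol selected polyadenylated RNA on oligo(dT) and selected the inserts by size. GENCODE M21 places 273 small RNA genes in the member rows, 252 snoRNAs or scaRNAs (snoRNA-like guides of the Cajal body) and 21 microRNAs, and 208 of the 273 lie in Snhg14. Of the 273, 61 had a row in the deposited table, and the highest count of any of them in any library was 24 units, with 50 never above 2. A fragment counted as about 4 units in this table, judged from low values that pile up at multiples of 4.

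Library totals ran from 64479829 to 73098735 units, so that 3 fragments equal 0.166 to 0.186 CPM (counts divided by the TMM-scaled library total, times 1e6). Log2 CPM correlated between libraries at 0.968 to 0.982 within a surface and at 0.968 to 0.979 between surfaces. The macrophage markers summed to 6498 to 6917 CPM on smooth PEEK and 6796 to 6958 CPM on structured PEEK. Csf1r, Cd68, Lyz2 and Ptprc were high, Adgre1 and Fcgr1 had means of 11.5 and 7.46 CPM, and Mertk stood at 0 to 0.269 CPM. Of 11 tested macrophage markers 1 was called lower and 0 higher, where 2.75% of all genes tested were called lower. This was Cx3cr1, which went from a mean of 179 to 153 CPM (edgeR, adjusted p = 0.0238), without overlap of the groups. Of 12 neutrophil markers 6 passed the low-count filter and 6 were called higher, where 1.01% of all genes tested were. On smooth PEEK Mmp8 and Ngp stood at 0, and Chil3, S100a9 and S100a8 at means of 0.0173, 0.0150 and 0.172 CPM. These passed the filter only through their structured libraries, so their calls are no separate result beside the levels. The list summed to 0.438 to 1.92 CPM on smooth PEEK against 16.0 to 81.1 CPM on structured PEEK. Mpo and Elane were at 0 on smooth PEEK and at 0.0107 and 0.0290 CPM on structured. Of 12 hepatocyte markers none was called (edgeR; 2 at an unadjusted p under 0.05), with sums of 61.9 to 311 CPM and 128 to 443 CPM, highest in smooth 1, structured 3 and structured 4. Of 12 skeletal muscle markers 3 were called lower, with sums of 21.8 to 66.1 CPM and 16.1 to 24.5 CPM. Fibroblast, lymphocyte and erythroid lists each stayed under 6 CPM in each library. The part of these markers in the host values below was not tested. In bulk RNA, fewer cells of a type and less RNA per cell cannot be told apart.

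Per length, the hosts spanned about 4 orders of magnitude in FPKM (the authors' values, which scale fragments by transcript length and library depth). Gas5, a growth arrest transcript with 10 annotated snoRNA genes, was the most abundant at 48.8 ± 1.81 FPKM on smooth and 55.1 ± 3.16 FPKM on structured PEEK (SD, n = 4 per surface). Snhg1, with 8 snoRNAs, followed at 18.4 ± 1.03 and 22.6 ± 0.533 FPKM. The ranges of Gas5 and Snhg1 did not touch those of any other host. Snhg5, Snhg6 and Snhg8 came next at means of 9.73, 9.18 and 8.50 FPKM over all 8 libraries, and these neighbours lay within each other's spread. Snhg15 (6.72), Snhg17 (5.32), Mir17hg (4.80), Snhg12 (4.51), Snhg20 (4.43) and Snhg16 (4.08 FPKM) formed the next group, again with overlapping ranges. Mir17hg was the most abundant of the 8 microRNA hosts. At the low end stood Snhg14, the imprinted host of the Snord115 and Snord116 clusters, at 0.0311 FPKM, Mir100hg at 0.0226, Snhg11 at 0.00784 and Mir9-3hg at 0.00539 FPKM. The length behind the FPKM was about 1.1 times the exonic bases of GENCODE M21 for most members, but 2.25 times for Snhg5, 2.09 times for Snhg15 and 1.30 times for Snhg16, so those levels rest on another gene model.

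**Figure D1:**
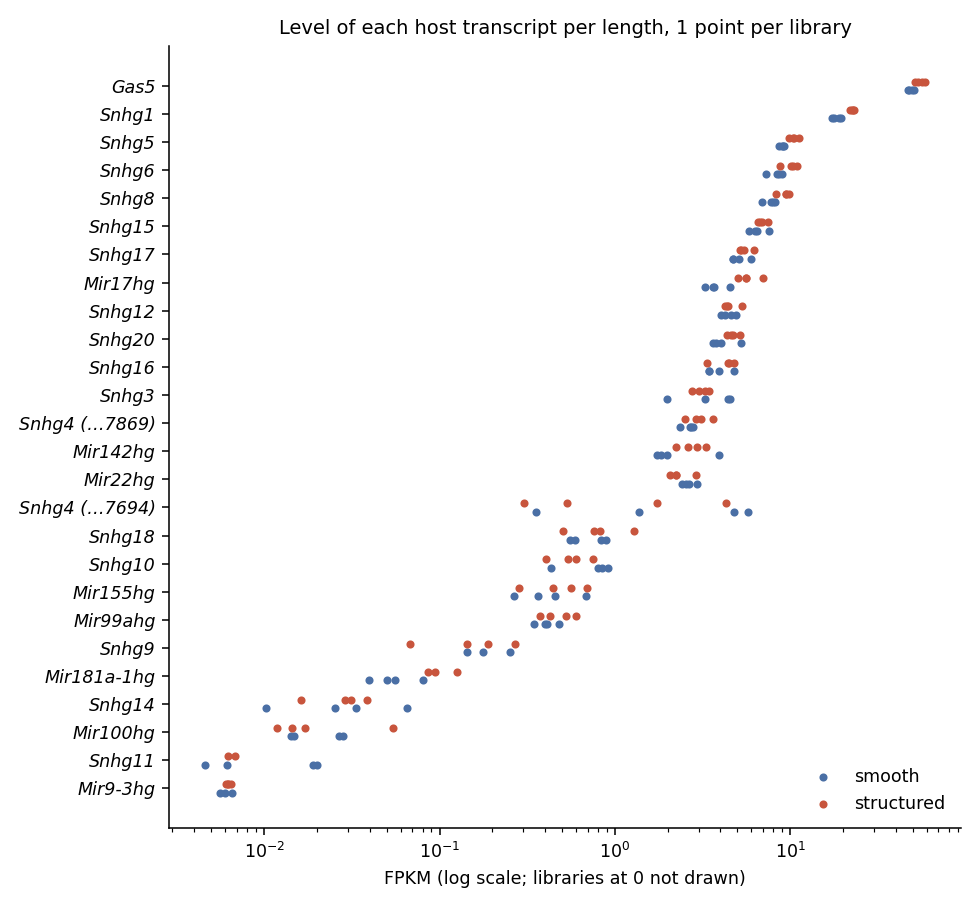
FPKM of each of the 26 host rows on a log axis, 1 point per library, blue for smooth and red for structured PEEK, with hosts ordered by mean and libraries at 0 not drawn. Gas5 and Snhg1 stand apart at the top, and libraries of 1 host spread most widely among the scarce hosts at the bottom.

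Between the surfaces, 3 members were called higher on structured PEEK and 0 lower (edgeR quasi-likelihood test with Benjamini-Hochberg adjustment under 0.05 over all 16006 genes tested). The 3 were Snhg1, Snhg5 and Mir17hg. Over all genes tested 1.01% were called higher and 2.75% lower. Of the 26 members 23 passed the low-count filter, with Snhg9, Snhg11 and Mir9-3hg left out. Of those 23, 18 had a log2 fold change above 0, against 51.2% of all genes, and their median was 0.17, against 0.01 over all genes. At an unadjusted p under 0.05 there were 6, all higher on structured PEEK (Gas5, Snhg1, Snhg5, Snhg6, Snhg8 and Mir17hg), where 8.14% of all genes were, and 0 lower. The libraries of the surfaces did not overlap for 5 members (Gas5, Snhg1, Snhg5, Snhg8 and Mir17hg), all higher on structured PEEK, against 5.19% of all genes. Among the 15 members with a mean of at least 5 CPM 3 were called higher, against 1.31% of genes of that abundance. Each of these counts includes Mir17hg, which was named for inclusion with its difference known. The 16 tested snoRNA hosts, which leave it out, held 2 calls, 5 at an unadjusted p under 0.05 and 4 without overlap.

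Snhg1 rose on structured PEEK by 1.23-fold. Its levels were 59.2, 55.3, 56.7 and 62.4 CPM in smooth 1 to 4 and 72.3, 72.4, 69.0 and 72.9 CPM in structured 1 to 4. All 4 structured libraries lay above all 4 smooth ones, and the structured libraries were closer together. The log2 fold change was 0.29 ± 0.05 (SE; edgeR BH-adjusted p = 0.0123), higher in 4 of 4 libraries. Without structured 4 the fold change was 0.29 and the adjusted p 0.0502, and without smooth 1, structured 3 and structured 4, the libraries richest in hepatocyte markers, it was 0.32 with an adjusted p of 0.0635.

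Snhg5, the host of the Snord50 pair printed above, rose by 1.16-fold. In smooth 1 to 4 it had 34.9, 35.1, 36.4 and 33.8 CPM, and in structured 1 to 4 it had 39.9, 41.4, 38.1 and 43.8 CPM. The lowest structured library, structured 3, lay just above the highest smooth one, smooth 3. The log2 fold change was 0.22 ± 0.05 (edgeR BH-adjusted p = 0.0462). This call was lost in 14 of 20 alternatives. Leaving out any single library other than structured 3 gave log2 fold changes of 0.19 to 0.24 with edgeR BH-adjusted p from 0.0797 to 0.128. Without structured 3 it was 0.25 (adjusted p = 0.0352), and removing each library's trend with GC content and length gave 0.12 (adjusted p = 0.232).

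Gas5 had 201, 189.7, 194 and 201 CPM in smooth 1 to 4, and 225, 216, 206 and 235 CPM in structured 1 to 4. Here too the groups did not overlap, and the gap between smooth 4 and structured 3 was small. The log2 fold change was 0.17 ± 0.04, and it did not pass the threshold (edgeR BH-adjusted p = 0.0648). It passed with DESeq2 (0.17, adjusted p = 0.00318) and without structured 3 (0.20, adjusted p = 0.0378). Over the 20 alternatives the adjusted p ran from 0.00318 to 0.172.

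The remaining snoRNA hosts did not pass. Snhg8, host of the H/ACA RNA Snora24, had 6.97, 7.35, 7.58 and 6.404 CPM on smooth PEEK, against 8.87, 7.63, 8.60 and 8.66 CPM on structured PEEK, so that structured 2 was barely above smooth 3 (log2 fold change 0.25 ± 0.10, adjusted p = 0.210). Snhg6, host of Snord87, had 10.8, 10.4, 10.7 and 8.98 CPM against 10.6, 12.9, 13.4 and 12.3 CPM, with structured 1 among the smooth values (0.27 ± 0.10, edgeR BH-adjusted p = 0.1802). Both fold changes lay between those of Snhg5 and Snhg1, with about 2 times the standard error. Snhg17 had 44.3, 36.0, 38.9 and 35.7 CPM on smooth PEEK against 46.2, 41.6, 39.2 and 39.0 CPM on structured PEEK, which overlap (0.10 ± 0.08). Snhg15, host of Snora9, had 21.2, 17.9, 16.6 and 18.5 CPM against 19.5, 21.4, 18.3 and 19.02 CPM (0.08 ± 0.08). Snhg16, host of the Snord1 copies, had 16.9, 14.2, 12.6 and 12.5 CPM against 17.1, 16.3, 11.97 and 15.9 CPM (0.13 ± 0.13), and both of its extremes were structured libraries. The 95% interval of the log2 difference was -0.09 to 0.29 for Snhg17, -0.12 to 0.28 for Snhg15 and -0.18 to 0.44 for Snhg16.

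**Figure D2:**
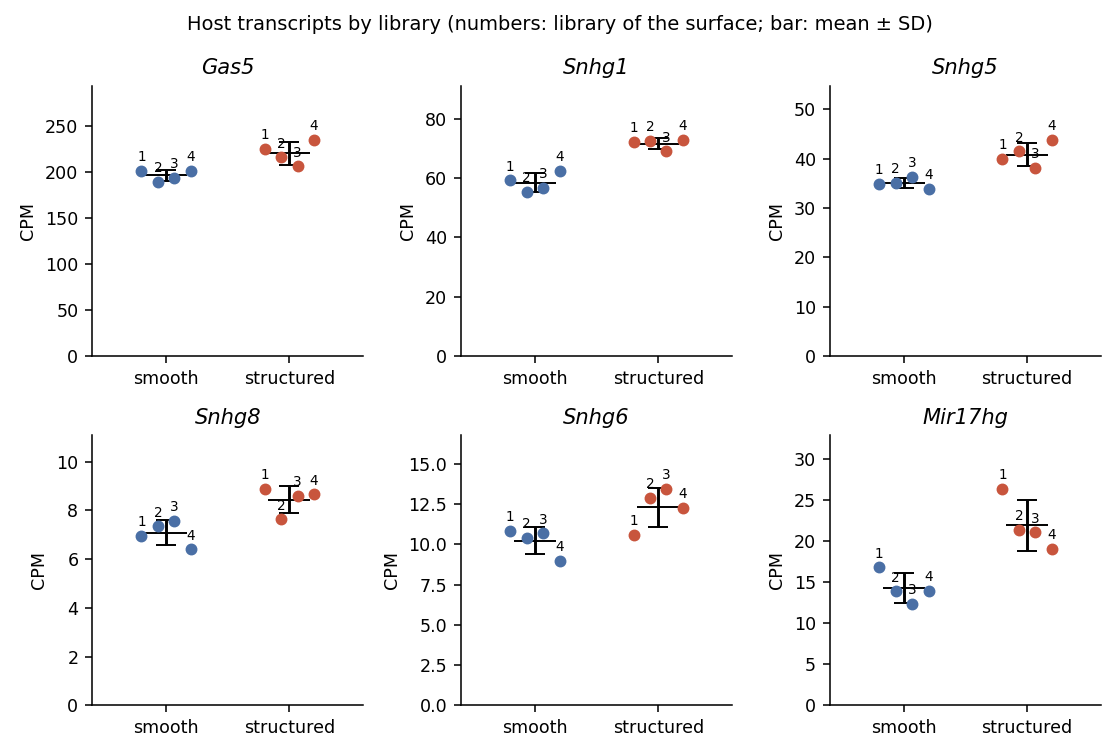
CPM of 6 hosts in each library (points, numbered by library), with the mean and SD of each surface (bars), n = 4 per surface, each axis starting at 0. The structured libraries lie above the smooth ones for Gas5, Snhg1, Snhg5, Snhg8 and Mir17hg, while structured 1 of Snhg6 falls among the smooth libraries.

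Snhg4, host of the H/ACA RNA Snora74a, stands on 2 rows that behaved differently. The row typed lincRNA (ENSMUSG00000117869) had 13.4, 14.05, 13.5 and 11.8 CPM on smooth PEEK against 17.9, 12.6, 15.3 and 14.4 CPM on structured PEEK, a log2 fold change of 0.19 ± 0.11. The row typed protein_coding (ENSMUSG00000117694), which GENCODE M21 calls Gm28285, had 13.1, 0.848, 11.2 and 3.24 CPM on smooth PEEK against 1.27, 4.07, 9.91 and 0.729 CPM on structured PEEK. It varied more than 10-fold within each surface, and its log2 fold change of -0.82 ± 0.82 was the lowest of the tested members and did not pass. This row shares 1754 exonic bases on the same strand with Matr3, a nuclear matrix protein gene, and 246 with the other Snhg4 row, so its reads cannot be assigned with certainty.

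Snhg10, host of Scarna13, had the next lowest fold change, -0.37 ± 0.41, at 0.480, 0.523, 0.248 and 0.471 CPM on smooth PEEK against 0.346, 0.443, 0.313 and 0.233 CPM on structured PEEK. All of these are below 10 fragments a library, and the groups overlap. The other snoRNA hosts tested (Snhg3, Snhg12, Snhg14, Snhg18 and Snhg20) had log2 fold changes from -0.23 to 0.22, none past the threshold, and all overlapped. Snhg3, host of the Snora73 pair, spread from 2.16 to 4.83 CPM on smooth but only from 2.93 to 3.66 CPM on structured PEEK. Among the 16 tested snoRNA hosts 2 were called higher and 12 had a fold change above 0, with a median of 0.15.

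Among the microRNA hosts, Mir17hg rose by 1.54-fold. Its levels were 16.8, 13.9, 12.4 and 13.9 CPM in smooth 1 to 4 and 26.3, 21.4, 21.1 and 19.02 CPM in structured 1 to 4. The groups did not overlap, and structured 4 and smooth 1 were nearest to each other. The log2 fold change was 0.62 ± 0.11, with an adjusted p of 0.0170 in edgeR. Structured 1, the highest library for Mir17hg, had the lowest neutrophil marker sum of its surface, 16.0 CPM. That was still above the 0.438 to 1.92 CPM of the smooth libraries. Of the 16.0 CPM, Lcn2 alone made up 11.1 CPM. Lcn2 had 15.7 to 17.4 CPM in the other structured libraries and 0.396 to 1.64 CPM on smooth PEEK. The next highest marker in structured 1 was S100a9, at 1.99 CPM. S100a9 had 11.7 to 14.3 CPM in the other structured libraries and at most 0.0601 CPM on smooth PEEK. The part of these markers in the Mir17hg values was not tested. Leaving out smooth 2, smooth 3, smooth 4 or structured 2 gave log2 fold changes of 0.61, 0.56, 0.61 and 0.64 with edgeR BH-adjusted p of 0.0518, 0.0541, 0.0509 and 0.0538. Without the 3 libraries richest in hepatocyte markers it was 0.83 (adjusted p = 0.0108).

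The other microRNA hosts were less abundant, with means of 6.87 CPM for Mir99ahg, 5.15 CPM for Mir22hg and under 1 CPM for the rest. Mir155hg had 0.556, 1.06, 0.713 and 0.416 CPM on smooth PEEK against 0.678, 0.871, 0.441 and 1.07 CPM on structured PEEK, about 7 to 19 fragments a library. The groups covered the same range, and the log2 fold change was 0.16 ± 0.38 with a 95% interval of -0.78 to 1.09. Mir142hg had 1.13, 0.537, 0.589 and 0.513 CPM against 0.851, 0.974, 0.640 and 0.760 CPM, with smooth 1 the highest of all 8 (0.22 ± 0.33). Mir22hg had 5.36, 5.00, 5.26 and 6.10 CPM against 4.57, 4.65, 4.24 and 5.99 CPM, and was the only tested microRNA host with a fold change under 0 (-0.16 ± 0.14). Mir181a-1hg had 0.150, 0.212, 0.186 and 0.305 CPM against 0.462, 0.354, 0 and 0.310 CPM, and its 0.39 ± 0.82 rests on a few fragments. Mir99ahg and Mir100hg, hosts of the paralogous clusters that both give miR-125b-5p, had log2 fold changes of 0.23 ± 0.16 and 0.21 ± 0.51. Of 7 tested microRNA hosts 1 was called higher, with a median fold change of 0.22.

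**Figure D3:**
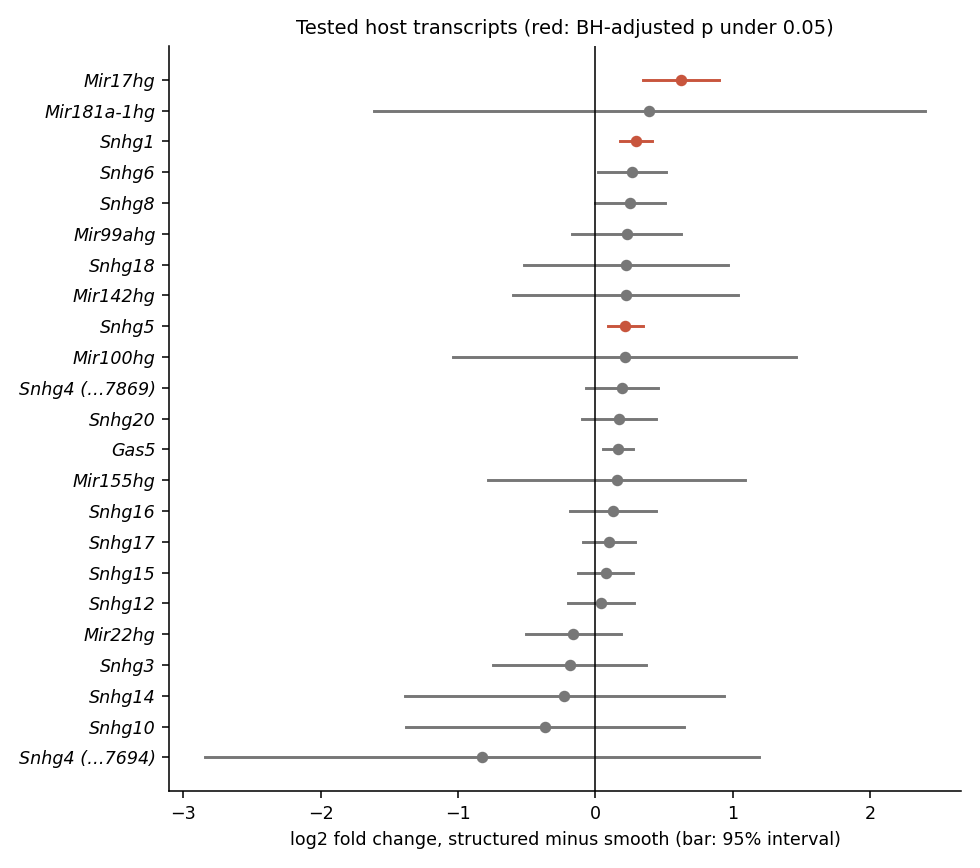
Log2 fold change of structured minus smooth for the 23 tested hosts, with bars for the 95% interval and red for hosts past the threshold, ordered by size. Snhg1, Snhg5 and Mir17hg are red, and the widest bars belong to Mir181a-1hg and the second Snhg4 row.

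Summed over all member rows, the hosts took 487, 438, 451 and 454 CPM of the smooth libraries and 533, 512, 496 and 531 CPM of the structured ones. The groups did not overlap, and Gas5 made up the largest portion of each sum. The microRNA hosts alone summed to 29.9, 27.3, 26.3 and 29.2 CPM against 42.6, 34.5, 34.3 and 35.6 CPM, and Mir17hg was the largest of them in each library. Their mean sum went from 28.2 to 36.7 CPM, and Mir17hg alone from 14.2 to 21.9 CPM. Most of this difference therefore lies in Mir17hg, the row named for inclusion with its difference known.

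The members were set beside other noncoding genes. The table types 18 of the tested members as lincRNA, among them all 3 that were called. Of all 450 tested genes with that type 0.667% were called higher. That is 3 genes, all of them members, while 0 of the other 432 were (edgeR; 17 of the 432 had an unadjusted p under 0.05 and a higher level, DESeq2 called 1 higher and voom 1). By DESeq2 4 of the members of that type were higher and by voom 2. The median log2 fold change was 0.22 for the 18 members and -0.02 for the 432, with no test between them, since the members were chosen with results of these libraries known.

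Counting could affect some members. Of the 26 rows 12 share exonic bases with another gene in GENCODE M21, and the sources used here do not say whether counting used strand. Snhg16 shares 497 bases with St6galnac2 on the opposite strand, Snhg14 shares 1803 with Ube3a on the opposite strand, Snhg3 shares 135 with Rcc1 on its own strand, and Mir22hg shares 206 with Tlcd2. Snhg1, Snhg5, Gas5, Snhg8 and Mir17hg share none. The rows of Gas5, Snhg1 and Snhg5 include retained-intron forms, and in Snhg1 the annotated exons join into 1 block of 2969 bases that holds the snoRNAs, so unspliced RNA could be counted there too. How much of the counts it makes up was not tested. Of the 26 rows 18 have the same coordinates in GENCODE M21 as in the table.

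Start sites of the hosts were read from RefSeq on GRCm38.p6, which held 21 of the 25 symbols in 25 entries (not Mir142hg, Mir181a-1hg, Snhg4 and Snhg6). Shown are 30 bases around the start of the snoRNA hosts whose libraries did not overlap, with the start at the sixteenth base and the longest run of C or T in capitals.
Snhg1, chr19:8723472-8723501, plus strand: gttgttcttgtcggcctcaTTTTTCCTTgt
Gas5, chr1:161035151-161035180, plus strand: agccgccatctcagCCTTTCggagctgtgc
Snhg5, chr9:88522883-88522912, minus strand: gagctgcggtgaaccgggctcgTTCTTTTa
Snhg8, chr3:123508322-123508351, minus strand: gcaccgttcagaagTCTCTTTggctgcgat
Gas5 has a further RefSeq start whose longest run is 3. A run of at least 6 pyrimidines on the transcribed strand stood in 12 of the 25 member windows (48.0%) and in 29.2% of all 32851 windows of that length. Only Gas5 and Snhg8 had a C at the annotated start followed by 4 pyrimidines, 2 of 25 against 2.51% of all. The palindrome CACGTG, the E-box that Myc can bind, stood in the 300-base promoters of Snhg9 and Snhg15, 2 of 25 against 7.2% of all. For Mir17hg the RefSeq start lies 1511 bases inside the table's gene, within the microRNA cluster, and its window is not shown but is among the 25. Other RefSeq starts also lie away from the start of the table's gene, by 744 bases for the Gas5 window shown and 665 for Snhg5. Those of Snhg8 and Snhg1 lie 68 and 12 bases away. Among the windows counted but not shown, the distance reached 476720 bases for Snhg14, 147816 for Mir100hg and 93011 for Mir99ahg. The shares therefore describe RefSeq starts, which may not be those of the counted transcripts.

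Genes of the pathways around the hosts were counted in fixed lists, each with at most 1 call in each direction. For the list counts here and below, 1.01% of all 16006 genes tested were called higher and 2.75% lower (edgeR). A fold change above 0 was seen in 51.2% of them. An unadjusted p under 0.05 was seen for 2999 (edgeR), 1303 of them above 0. Among 28 protein-coding snoRNA hosts 1 was called higher and 0 lower, 25 of 28 had a fold change above 0 and the median was 0.10. At an unadjusted p under 0.05 there were 13, of which 12 were above 0. The called one was Nop56, a core protein of C/D snoRNPs whose introns carry snoRNAs too. It rose from 369 ± 7.87 to 419.7 ± 17.9 CPM (log2 fold change 0.19 ± 0.04, edgeR BH-adjusted p = 0.0256), and was called in 13 of 20 alternatives. Leaving out smooth 3, smooth 4 or structured 1, 2 or 4 ended the call, at 0.16 to 0.20 with an edgeR BH-adjusted p of up to 0.0788. Of 19 snoRNP core and assembly proteins Nop56 alone was called, and 16 had a fold change above 0 (median 0.08), with 5 at an unadjusted p under 0.05, all of them above 0. Of 7 tested noncoding hosts outside the name rule 0 were called (edgeR; 1 at an unadjusted p under 0.05), among them Zfas1 at 0.15 ± 0.06 and Oip5os1 at -0.02 ± 0.05. Of 17 nonsense-mediated decay factors 0 were called (edgeR; 6 at an unadjusted p under 0.05, 1 of them above 0, the exon junction protein Magoh), with a median of -0.06. The most abundant of these factors were Eif4a3, at -0.08 ± 0.03, and Smg5, at 0.00 ± 0.04.

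On the microRNA side, 1 of 18 processing factors was called lower and 0 higher, with a median of -0.04 and 5 at an unadjusted p under 0.05, none of them above 0. This was Ago2, the slicing Argonaute, which fell from 207 ± 6.56 to 182 ± 9.84 CPM (log2 fold change -0.19 ± 0.04, edgeR BH-adjusted p = 0.0456). The call held in 7 of 20 alternatives and was lost when any library other than structured 3 was left out (-0.21 to -0.15, edgeR BH-adjusted p up to 0.128) and once trends with GC content and length were removed (-0.12). Among 18 protein-coding microRNA hosts 1 was lower, Huwe1, a ubiquitin ligase gene that holds miR-98 and let-7f-2, at -0.18 ± 0.04 (median -0.00, with 5 at an unadjusted p under 0.05, 2 of them above 0). Huwe1 was called in 8 of 20 alternatives. Leaving out any library other than structured 1 ended the call (-0.19 to -0.15, edgeR BH-adjusted p up to 0.118), and removing the GC and length trend gave -0.077. Among 14 Myc and E2f family genes that may act on Mir17hg 1 was lower, Mycn, which fell from 966 ± 16.2 to 887 ± 14.2 CPM (-0.12 ± 0.03, adjusted p = 0.0416). Its call held in 6 of 20 alternatives and was lost whichever library was left out (-0.13 to -0.11, edgeR BH-adjusted p from 0.0571 to 0.130). Of the 14, 6 had an unadjusted p under 0.05, 2 of them above 0. Myc stood at 13.6 ± 2.22 and 13.2 ± 1.83 CPM and was not called, and E2f1 at 57.5 ± 2.46 and 58.3 ± 1.70 CPM.

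Of 12 known targets of the microRNAs of the miR-17 cluster 1 was called lower and 1 higher, against 2.75% and 1.01% of all genes tested. A fold change above 0 was seen for 2 of the 12, against 51.2% of all genes (median -0.09, against 0.01). At an unadjusted p under 0.05 there were 5 (edgeR), 1 of them above 0. The part of Mir17hg in these values was not tested. Bcl2l11, which encodes the death protein Bim and is a target of the cluster, stood at 33.6, 31.7, 36.4 and 36.5 CPM on smooth PEEK against 28.0, 27.2, 30.5 and 28.3 CPM on structured PEEK. The groups did not overlap, and the log2 fold change was -0.28 ± 0.06 (edgeR BH-adjusted p = 0.0325). It was called in 11 of 20 alternatives, and leaving out smooth 3, smooth 4 or structured 1, 2 or 4 ended the call (-0.27 to -0.25, edgeR BH-adjusted p up to 0.103). Thbs1, which encodes thrombospondin and is also a target of the cluster, went the other way, from 0, 0.226, 0.0931 and 0.152 CPM to 4.17, 0.635, 1.71 and 2.19 CPM (4.17 ± 0.74, adjusted p = 0.0163). On smooth PEEK it lay at or below 4 fragments, so the size of its fold change is poorly set. Thbs1 was called in 12 of 19 alternatives, and not without smooth 3 (4.07, edgeR BH-adjusted p = 0.0595), without structured 4 (4.17, adjusted p = 0.0516) or with the replicate block (4.01, adjusted p = 0.0607). Of 10 known miR-155 targets 0 were called (edgeR; 2 at an unadjusted p under 0.05), with a median of -0.07, among them Spi1 at -0.06 ± 0.04 and Hif1a at -0.07 ± 0.04.

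**Figure D4:**
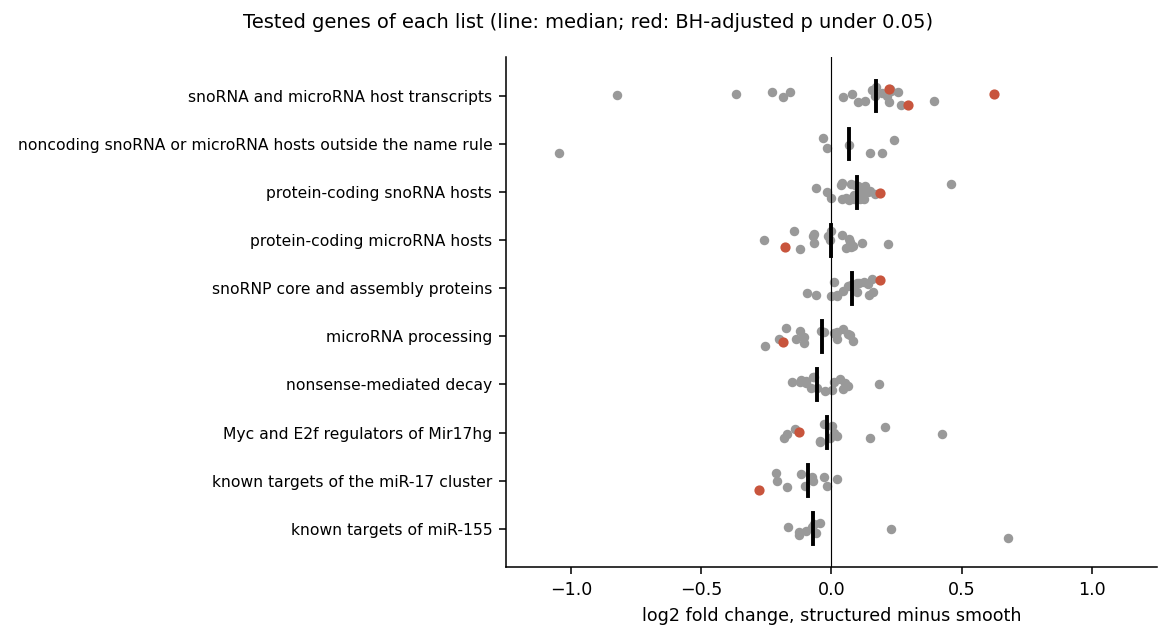
Log2 fold change of structured minus smooth of each tested gene in the host transcripts and 9 related lists, with a bar at each list's median and red for genes past the threshold; 1 gene, Thbs1, lies outside the axis. The host transcripts, the other noncoding hosts, the protein-coding snoRNA hosts and the snoRNP proteins have medians above 0, and 4 lists have a red gene below 0.

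The calls of single hosts depended on the fit to different degrees. Snhg1 was called in 18 of 20 alternatives, Mir17hg in 14, Snhg5 in 6 and Gas5 in 2. In these 20 fits each of the 4 kept a fold change above 0, between 0.52 and 0.83 for Mir17hg, 0.22 and 0.33 for Snhg1, 0.12 and 0.25 for Snhg5 and 0.12 and 0.20 for Gas5. With the trend of each library with GC content and length removed, the values were 0.57, 0.22, 0.12 and 0.12, and Snhg6 and Snhg8 went to 0.13 and 0.15. The median over the tested members was then 0.13.

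**Figure D5:**
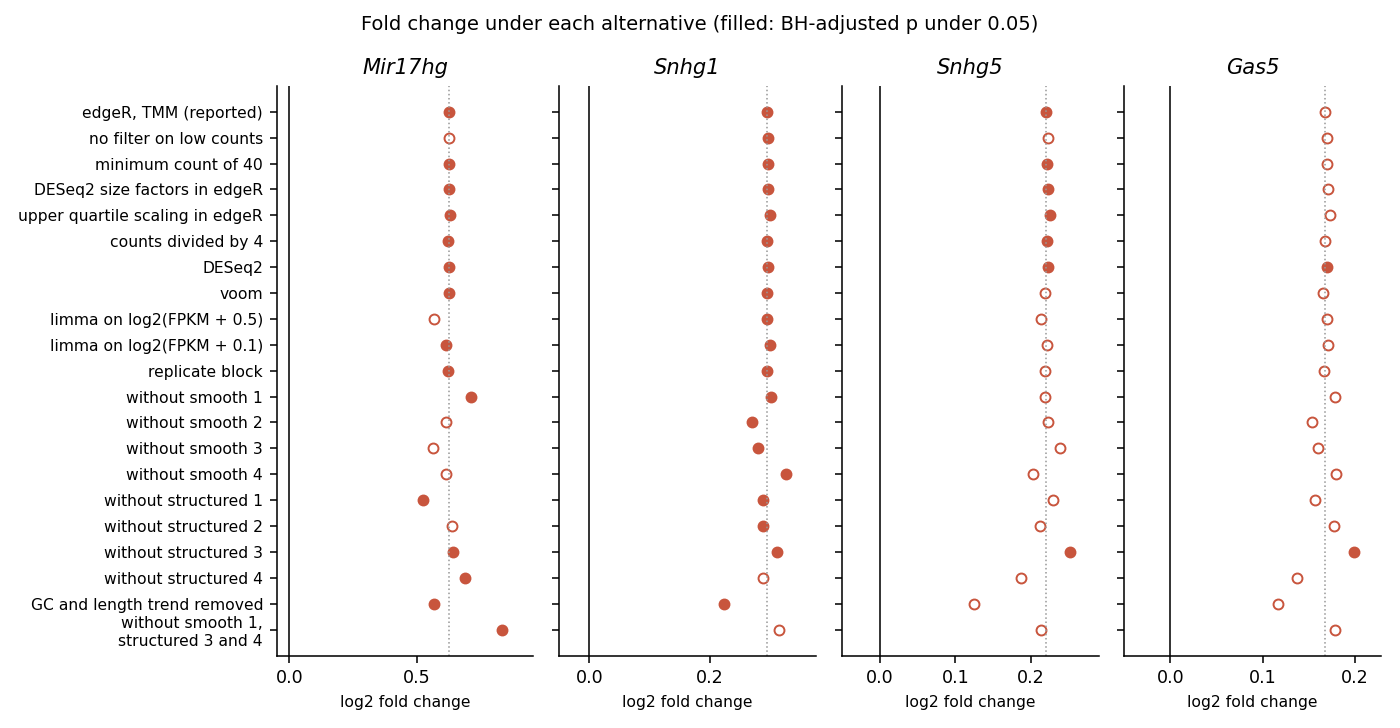
Log2 fold change of structured minus smooth for 4 hosts in the reported fit and 20 alternatives, filled where the adjusted p is under 0.05, with a dotted line at the reported value. Points stay right of 0 throughout, and Snhg1 is filled in most fits, Gas5 in few.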

How the data were processed

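RNA of RAW264.7 cells (8 libraries) was selected on oligo(dT), its second strand marked with dUTP, and sequenced in pairs, per the labels' protocols. The submitters' processing notes name cutadapt 1.9 for trimming and HISAT2 2.2.1 for alignment. How genes were counted, with or without strand, and on which build is not given in the sources used here. Per the file headers, the authors deposited, for each gene in each library, an FPKM value and an expected count, which they rounded to whole numbers. The value 4 occurred 8018 times, 3 occurred 3344 times and 5 occurred 2180 times, so 1 fragment was read as about 4 units.

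The main fit used edgeR 4.0.16 in R 4.3.3 on the deposited counts, after filterByExpr (minimum count 10) and with TMM factors, by the quasi-likelihood test (two-sided), BH-adjusted over 16006 genes at 0.05. The other 10842 genes were not tested. The samples were taken as 4 replicates per surface. The labels call 3 libraries of each surface biological replicates (biol rep) without saying whether cultures or days were separate. So p-values, standard errors and fold change intervals measure the spread between these samples, part of which may be technical. Library numbers follow the library names, since the title of the first library of each surface has no number. The floor of 3 fragments covers counting error only.

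Alternatives were DESeq2 1.42.0, voom and limma 3.58.1 on log2(FPKM + 0.5) and log2(FPKM + 0.1), other filters and scalings, counts divided by 4, a replicate block and each library left out. Removal of the GC and length trend and leaving out 3 libraries together were chosen after seeing the data. On simulated data for this comparison, over 15523 tested genes, edgeR found 98% of 100 genes with a log2 change of 1. It found 45% of 100 genes with one of 0.3, and made 14 calls among the 15806 genes simulated without a change. The simulated counts held no library trends with GC content or marker levels, so the shares need not hold for the real libraries. The changed genes were drawn from those with a mean of at least 5 CPM, so these shares do not cover scarcer hosts.

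The members and gene lists were chosen with earlier results of these data known. Values per library are given for members past the threshold, the 8 most abundant, the 4 with the largest absolute fold change, and Mir155hg, Mir22hg, Mir142hg and Gas5. Snhg6 and Snhg8 were added after their values were seen. Each list gives its called members, otherwise its 2 most abundant. Myc, E2f1, Magoh, Zfas1 and Oip5os1 were further named after seeing values where this rule did not name them. Plots were made in Python 3.11.15 with matplotlib 3.10.9.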

Additional observations from a re-analysis of the deposited data

Results flagged for a closer look

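In 52 groups of 4 libraries (26 hosts on each surface), 4 held a library whose gap to the nearest other, divided by the range of the group, passed 0.829. Chance gives about 1 in 20 such groups. Mir100hg, host of miR-100, let-7a-2 and miR-125b-1, stood at 1.41 CPM in structured 3 against 0.310 to 0.433 CPM in the other structured libraries. Mir142hg, host of miR-142, stood at 1.13 CPM in smooth 1 against 0.513 to 0.589 CPM. Mir9-3hg stood at 0 CPM in smooth 1 against 0.0277 to 0.0310 CPM, which is 2 count units, less than 1 fragment, in each of the others. Snhg1 stood at 69.0 CPM in structured 3, below the 72.3 to 72.9 CPM of the other structured libraries and above all smooth ones. Smooth 1 and structured 3 are also among the 3 libraries with the highest hepatocyte marker sums, and the part of those markers in these values was not tested.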

How the results depend on the processing

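The count of hosts called higher, 3 in the reported fit, was 1 without a filter on low counts, 1 with limma on log2(FPKM + 0.5), 1 without smooth 1, structured 3 and structured 4 together, and 1 to 4 with each library left out; the count lower was 0 in every alternative. Over all genes the 161 called higher became 47 without a filter, 528 with DESeq2, 67 and 89 with FPKM pseudocounts of 0.5 and 0.1, 62 without the 3 libraries and 21 to 170 with 1 library left out. The 440 called lower became 142, 847, 124 and 153 in the same fits, 228 with the GC and length trend removed, 124 without the 3 libraries and 67 to 427 with 1 left out. In the 9 lists, 2 higher calls became 0 without a filter, 14 with DESeq2, 1 with voom, 1 and 1 with the FPKM pseudocounts, 1 without the 3 libraries and 0 to 4 with 1 left out, and 4 lower calls became 0, 12 (DESeq2), 0 and 0 (FPKM), 1 (GC and length), 0 without the 3 libraries and 0 to 3. The Mir17hg fold change was 0.63 without a filter (edgeR BH-adjusted p = 0.0567), 0.57 with limma on log2 FPKM at the larger pseudocount (limma BH-adjusted p = 0.0519) and 0.52 to 0.71 with 1 library left out. The sign turned for Mir100hg (-0.54 to 0.44 with 1 library left out, lowest without structured 3, and -0.30 without the 3 libraries), Snhg12 (-0.029 to 0.082, lowest without structured 4, -0.011 with GC and length, -0.0026 without the 3), Snhg18 (-0.045 to 0.40, lowest without structured 4, -0.22 without the 3), Mir155hg (-0.048 to 0.45, lowest without structured 4, -0.024 without smooth 4), Mir181a-1hg (-0.65 with voom) and Snhg14 (-0.52 to 0.32, highest without smooth 4, 0.053 without the 3), none of them called in the reported fit; the cause was not tested. Of 444 host values in all alternatives, 407 kept direction and side of the threshold, 22 lost the call, 2 gained it and 13 changed sign. DESeq2's own filter left 13 hosts with an adjusted p. Mir100hg, Mir142hg, Mir155hg, Mir181a-1hg, Snhg10 and Snhg14 had a mean under 1 CPM, and the depth limits what can be said of their direction.

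With the library number as a replicate block, 2 hosts were called higher (Mir17hg at 0.62 and Snhg1 at 0.30), the Snhg5 call was lost (adjusted p = 0.0854), the lists held 1 higher call and Mir181a-1hg turned to -0.023. The deviations of same-numbered libraries correlated at -0.06, 0.08, -0.00 and -0.16, so no shared deviation by number was seen. The labels do not say whether the numbers pair the samples.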

Other observations

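The 3 members that were not tested lay at the detection limit. Snhg11 had 12, 4, 12 and 4 count units on smooth and 0, 0, 4 and 4 on structured PEEK, that is 3 fragments at most. Snhg9, which lies opposite Rps2 and carries Snora78, had 0 to 4 units in each library. Mir9-3hg, host of the neuronal microRNA miR-9, had 0 to 2 units. The hosts outside the rule, Mir133a-1hg and Mir670hg, reached at most 0.0901 and 0.0601 CPM, both in smooth 1.

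The spread between libraries of a surface differed among hosts. The coefficient of variation of the CPM was 2.95% and 5.60% for Gas5 on smooth and structured PEEK, 5.36% and 2.49% for Snhg1, and 2.99% and 5.91% for Snhg5, but 84.0% and 105% for the Snhg4 row that shares exons with Matr3, where the other Snhg4 row had 7.30% and 14.7%.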
